A study of Mus musculus with 16 samples.

Results

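The ratio of ribosome-bound over total mRNA was described in livers of mice on a high-fat diet (HF). Its unit is the gene: for each of 7659 genes, chosen from the 24539 genes in every deposited table, the level in ribosome-bound mRNA was set against the level in total mRNA of the same diet group. A gene was included if it reached 10 CPM (read counts scaled by the library total) or more in both HF total mRNA libraries. No value of the ribosome-bound libraries entered that choice. The log2 ratio of a gene is the mean of log2(CPM + 0.5) over the 2 ribosome-bound libraries minus the same mean over the 2 total mRNA libraries, so a ratio of 0 means an equal share of the reads in both kinds of library. It is a relative measure. It counts neither ribosomes per mRNA nor molecules per cell.

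The series holds 16 samples of liver from male C57BL/6 mice, killed at an age of 16 weeks after 8 weeks of diet. HF animals ate a high-fat diet alone, and the HB animals, which enter here only beside the HF values, ate a high-fat diet with Betaine. The 4 HF libraries used were 2 of total polyadenylated mRNA and 2 of RNC, mRNA that pelleted with ribosomes and their nascent chains through a sucrose cushion. Both diet groups share strain, sex, age and the high-fat diet, and no group on standard chow was part of the comparison. Per the labels each library pooled material from independent experiments, so a spread between libraries and every p-value measure how pools differed, not how single mice differed.

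An mRNA that is being translated carries ribosomes and sediments with them, while an mRNA stored in a free particle or held in the nucleus does not. The share of an mRNA found with ribosomes therefore follows its entry into translation. A classic case is the family of mRNAs for ribosomal proteins, whose transcripts begin with a run of pyrimidines (a terminal oligopyrimidine tract) through which growth signals can move them between ribosomes and free particles. Liver also devotes much of its translation to secreted plasma proteins made at the endoplasmic reticulum.

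The first bases of 7 transcripts are shown because the ratios that stand lowest belong to genes with ribosomal names, and these starts differ between them. Each line gives 10 bases before and 20 bases from the RefSeq start in GRCm38.p6, read on the coding strand, with capitals for an unbroken run of C and T that begins at the start and holds at least 5 bases.
Rps6, chr4:86857348-86857377, minus strand: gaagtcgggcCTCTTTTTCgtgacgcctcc
Rpl7a, chr2:26910797-26910826, plus strand: ctcttctttcTTTCTCCagcagccgagcaa
Fau, chr19:6057937-6057966, plus strand: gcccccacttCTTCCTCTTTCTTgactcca
Rack1, chr11:48800350-48800379, plus strand: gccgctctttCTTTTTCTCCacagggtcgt
Eef1a1, chr9:78481705-78481734, minus strand: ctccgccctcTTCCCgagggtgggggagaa
Mrpl10, chr11:97041572-97041601, plus strand: cgcagcgcgcatgggaacttcctgtagcga
Rps6kb1, chr11:86544788-86544817, minus strand: gcgccggagctgaacttgaggagccagtct
The log2 ratio was -6.33 for Rps6, -8.47 for Rpl7a, -2.997 for Fau, 0.97 for Rack1, -0.90 for Eef1a1, -6.54 for Mrpl10 and -6.21 for Rps6kb1. Genes with a marked run thus stood at both ends of this range, and the pair without one stood at its low end. These 7 genes were chosen for display, and they do not test the part of such runs in the ratios.

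The total mRNA libraries held 11437462 and 11570775 reads and detected 14981 and 15195 genes. The ribosome-bound libraries held 5778439 and 6431510 reads and detected 8313 and 8990 genes. The 7659 genes took between 96.9% and 97.6% of the reads of each library. The ribosome-bound pair was far less alike than the total mRNA pair: the SD of the log2 difference between its libraries over the 7659 genes was 2.20, against 0.376 for total mRNA, and Pearson's r across genes was 0.684 against 0.970. A count of 0 in 1 ribosome-bound library beside more than 20 reads in the other was found for 624 genes in 1 direction and 413 in the other, and for 0 genes in the total mRNA pair. The ratio of those genes rests on 1 of the 2 ribosome-bound libraries, so the values of single libraries are given for the genes named.

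Ratios were widely spread around a median slightly below 0. The median log2 ratio was -0.43, with quartiles at -1.76 and 0.39, and 4090 genes (53.4%) lay within 1 log2 unit of 0. Another 2724 genes (35.6%) were at -1 or below and 845 (11%) at 1 or above. The distribution had a long lower tail: 582 genes (7.60%) were at -4 or below, whereas 150 genes (1.96%) were at 2 or above and 4 at 4 or above. The inclusion rule asks for a level in total mRNA only, so it favours the lower tail. It left out 397 genes with at least 10 CPM in both ribosome-bound libraries. The unequal tails are therefore in part set by the rule. Of the 582 lowest, 119 are on the 3 lists of ribosomal proteins of the cytosol or mitochondria, which hold 154 of the 7659 genes. With ribosome-bound library 1 alone the median was -0.33 and with library 2 alone it was -0.27.

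**Figure D1:**
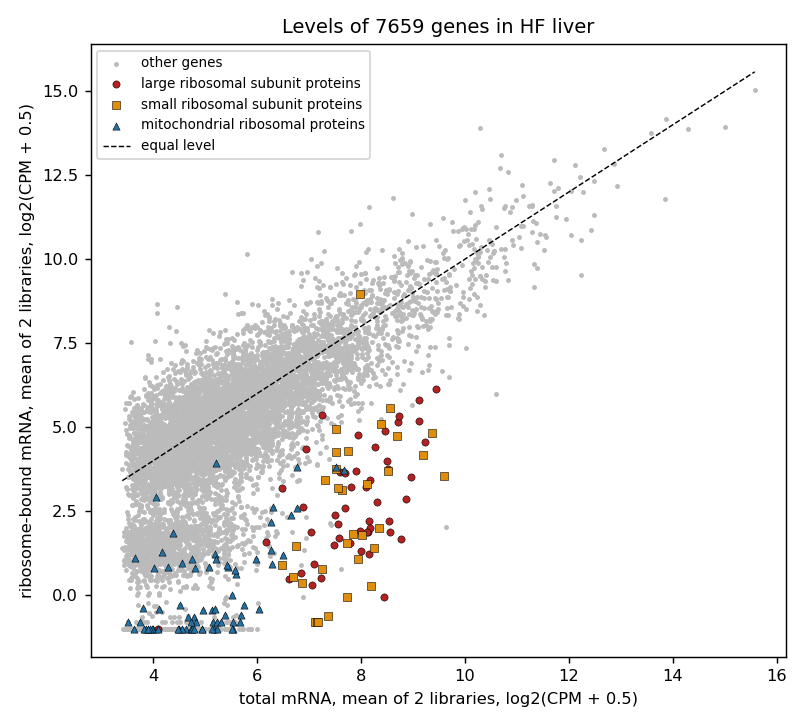
Mean level of each of the 7659 genes in ribosome-bound mRNA (vertical axis) against total mRNA (horizontal axis), both as log2(CPM + 0.5) over 2 HF libraries, with the 3 lists of ribosomal proteins marked and a dashed line of equal level. Of all genes shown 53.4% lie within 1 log2 unit of the line. Of the 154 listed ribosomal protein genes 152 have both ribosome-bound values below both total mRNA values.

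The test across genes was edgeR's quasi-likelihood test on the 4 libraries, scaled to library totals, with Benjamini-Hochberg adjustment over the 11998 genes tested. A gene is called lower or higher here if its adjusted p was under 0.05. All 7659 genes were among those tested, and 638 of them were called lower (8.33%) and 375 higher (4.9%) in ribosome-bound mRNA. In either direction that is 13.2% of the 7659. Over all 11998 genes the shares were 19.2% lower and 3.47% higher, or 22.7% in either direction. Both ribosome-bound values lay below both total mRNA values for 3038 of the 7659 genes (39.7%) and above both for 1768 (23.1%), against 42.1% and 19.3% of all genes tested. The calls sit just under the threshold, since the smallest adjusted p was 0.0342. TMM scaling would lower ratios by about 0.14 log2 units, and the ratios given here are relative to library totals. Removing the length trend of the ratio subtracts its fitted level too, and moves the median of the 7659 genes from -0.425 to 0.424. In the bins of length described below, the medians after removal lie between 0.337 and 0.839. The move is thus an upward shift in every bin and does not measure an effect of length. With the fitted trend removed, the calls are 479 lower and 1273 higher. In the main fit the calls are 638 lower and 375 higher. They fall to 0 in both directions without either total mRNA library, without a filter on low counts and with a filter at a mean of 5 CPM, so a call below is a ranking within this fit, and the values per library carry the description.

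In the deposited tables, ribosomal proteins had the lowest medians of the 33 functional classes. Calls per class, here and below, are to be read beside the shares of all 7659 genes, 8.33% lower and 4.9% higher. Whether reads of these genes were filtered out of the ribosome-bound tables before deposit is not given in the sources used here, and its part in their ratios was not tested. The labels describe removal of ribosomal RNA reads in their passage on the m6A libraries. The large-subunit proteins (49 genes) had a median log2 ratio of -5.11 with 36 called lower, and the small-subunit proteins (33 genes) had -5.58 with 24 called lower. The mitochondrial ribosomal proteins (72 genes), which build the separate ribosome inside mitochondria, had a median of -4.97 with 41 called lower. The mitochondrial list does not hold the subunits Dap3 and Gadd45gip1, described below, which count among the other genes. No gene of the 3 lists was called higher. Together their median was -5.10, beside -0.39 for the 7505 other genes. The 3 lists took 2.39% and 2.65% of the reads of the total mRNA libraries but 0.173% and 0.171% of those of the ribosome-bound libraries. In HB the corresponding shares were 2.22% and 2.97%, and 0.182% and 0.180%.

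Rpl7a, a large-subunit protein, had the lowest ratio of all genes. Its level was 317 and 375 CPM in total mRNA and 0.346 and 0.622 CPM, or 2 and 4 reads, in ribosome-bound mRNA, which is a pooled ratio of 0.00142 (exact 95% interval 0.000521 to 0.00309, counting error only; adjusted p = 0.0342). Rps26 of the small subunit had 129 and 156 CPM in total mRNA and 0 and 1 read in ribosome-bound mRNA (pooled ratio 0.000574, exact 95% interval 1.45e-05 to 0.0032, counting error only). Both genes were thus close to absent from both ribosome-bound libraries at a depth that gave them over 1000 reads in each total mRNA library.

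Rps6, the small-subunit protein phosphorylated by S6 kinases, showed how far the ribosome-bound libraries could differ. It had 308 and 344 CPM in total mRNA and 0.346 and 18.8 CPM in ribosome-bound mRNA, and the edgeR call was not reached (adjusted p = 0.144). Rpl3, a large-subunit protein near the peptidyl transferase centre, had 91.0 and 104 CPM in total mRNA and 0 and 3.42 CPM in ribosome-bound mRNA (edgeR adjusted p = 0.108). In both genes each ribosome-bound value was nevertheless below both total mRNA values.

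Rplp0, a protein of the ribosomal stalk, had 206 and 235 CPM in total mRNA and 3.12 and 1.87 CPM in ribosome-bound mRNA. Rps18, with the highest total mRNA CPM of the small-subunit list, had 790 and 753 CPM against 5.19 and 23.6 CPM. Rpl13a, with the highest total mRNA CPM of the large-subunit list, had 686 and 703 CPM against 58.8 and 84.3 CPM, a log2 ratio of -3.29. Rpl41, which encodes the shortest ribosomal protein, had the highest ratio of all 79 genes with Rpl or Rps symbols, at -1.88, from 155 and 148 CPM in total mRNA and 30.5 and 54.4 CPM in ribosome-bound mRNA. All 79 had both ribosome-bound values below both total mRNA values. The mouse genome holds many near-identical copies of ribosomal protein genes, so read assignment among them is uncertain in both kinds of library.

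Among mitochondrial ribosomal proteins, Mrpl10 had 43.2 and 48.7 CPM in total mRNA and 0 reads in both ribosome-bound libraries, so it was at least 93.3-fold lower. That bound, like those below, sets a gene with 0 reads at 3 reads in each ribosome-bound library. Mrpl54 had 47.6 and 43.2 CPM in total mRNA and likewise 0 reads. Mrpl18, with the highest total mRNA CPM of the list, had 202 and 204 CPM in total mRNA and 15.4 and 10.4 CPM in ribosome-bound mRNA, a log2 ratio of -3.95. Of the 72 genes, 22 had 0 reads in both ribosome-bound libraries and 71 had both ribosome-bound values below both total mRNA values.

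Low ratios were also found in genes that have a ribosomal name but are no part of the ribosome. The following groups were formed after the values had been seen, so they are a description. The 5 Rps6k genes measured encode kinases, not ribosomal proteins, yet their median log2 ratio was -5.33, with 4 called lower: Rps6kb1, the kinase that phosphorylates Rps6, had 44.1 and 40.7 CPM in total mRNA and 1 and 0 reads in ribosome-bound mRNA. The 5 Rrp genes, for ribosomal RNA processing, had a median of -5.29, with 3 called lower. Another 4 genes with Rpl, Rps or Rsl symbols that are not subunits (Rpl7l1, Rps19bp1, Rsl1d1 and Rsl24d1) had a median of -5.05, with 3 called lower.

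Most subunits and assembly factors with other names had higher ratios. The 8 ribosome subunits measured whose symbols do not begin with Rpl, Rps, Mrpl or Mrps had a median of 0.65, from -4.67 to 2.15, with 1 called higher and 2 called lower. Rack1, a scaffold protein of the small subunit, had 241 and 265 CPM in total mRNA and 570 and 431 CPM in ribosome-bound mRNA. Dap3, a mitochondrial small-subunit protein, had 51.1 and 46.0 CPM against 145 and 325 CPM, and Gadd45gip1, a mitochondrial large-subunit protein, had 118 and 113 CPM against 221 and 325 CPM. In all 3 genes both ribosome-bound values were above both total mRNA values. Fau, a ubiquitin-like fusion with a small-subunit protein, was 1 of the 2 called lower, at 383 and 370 CPM against 44.99 and 48.5 CPM. Of 22 nucleolar and assembly factors with other symbols the median was 0.83, with 2 called higher (Gnl2 and Nop56) and 2 called lower (Mrto4 and Pes1). Nop56, a core protein of box C/D snoRNPs, had 85.3 and 70.6 CPM in total mRNA and 439 and 458 CPM in ribosome-bound mRNA. The cause of this split, a filter by gene name included, was not tested.

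**Figure D2:**
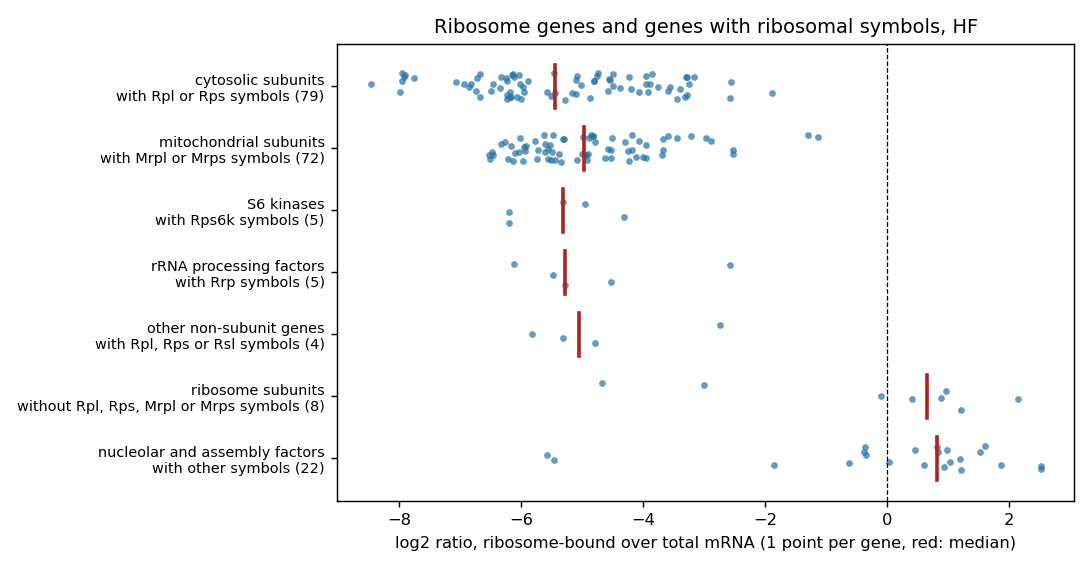
Log2 ratio of ribosome-bound over total mRNA in HF (horizontal axis), 1 point per gene and a red bar at the median, in 7 groups of genes by role and symbol, with the number of genes in brackets. The medians of the 5 groups with Rpl, Rps, Mrpl, Mrps, Rrp or Rsl symbols lie between -5.44 and -4.97, and those of the groups with other symbols at 0.65 and 0.83.

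The ratio was also set beside pyrimidine starts at the annotated base. The search asked for C at the annotated RefSeq start followed by at least 4 bases of C or T on the coding strand. Of 32851 promoters searched, 823 held such a start (2.51%). This rule is narrower than the marking of the starts shown above, which takes C or T as the first base. Rpl7a and Eef1a1, whose marked runs begin with T, therefore do not count as having such a start. A promoter was matched for 6069 of the 7659 genes. A start of this kind was found in 7 of 36 matched large-subunit genes, 7 of 25 small-subunit genes and 0 of 63 mitochondrial ribosomal protein genes. In the large-subunit list the median log2 ratio was -4.76 with such a start and -5.17 without, and in the small-subunit list -5.28 with it and -6.08 without. Among matched genes outside the 3 lists it was -0.45 with it (178 genes) and -0.39 without. Annotated starts can miss the start used in liver, and a start counted as lacking the run lacks it only at the annotated base. The genes counted as without a run can thus carry one, and the part of such runs in the ratios was not tested.

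The 4 other mRNAs named here that are known to begin with terminal oligopyrimidine tracts had ratios near 0 or modestly below it. What these tracts contribute to the ratios was not tested. Eef1a1, the elongation factor that delivers aminoacyl-tRNA, had 1646 and 1921 CPM in total mRNA and 866 and 1044 CPM in ribosome-bound mRNA (log2 ratio -0.90, edgeR adjusted p = 0.0584). Eef2, the translocase of elongation, had 619 and 625 CPM against 613 and 741 CPM. Tpt1, a small growth-related protein, had 1053 and 1232 CPM against 885 and 1019 CPM, and Pabpc1, the cytoplasmic poly(A)-binding protein, had 131 and 208 CPM against 119 and 209 CPM. None of the 4 passed the test, and in Pabpc1 and Eef2 the kinds of library overlapped or lay next to each other.

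The factors that drive translation were spread around the middle. Of 44 elongation and initiation factors, 6 were called higher and 3 lower, with a median log2 ratio of -0.05. Eif5b, the GTPase that joins the ribosomal subunits, had 164 and 126 CPM in total mRNA and 1626 and 1945 CPM in ribosome-bound mRNA, a log2 ratio of 3.62 (edgeR SE 0.250, adjusted p = 0.0342). In contrast Gspt1, a release factor, had 31.1 and 31.3 CPM in total mRNA and 0 reads in both ribosome-bound libraries, at least 63.3-fold lower. Eif2s1, the phosphorylated subunit of initiation factor 2, had 15.3 and 16.9 CPM and likewise 0 reads.

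Of 20 aminoacyl-tRNA synthetases, which charge tRNAs with their amino acids, 4 were called higher and 1 lower, with a median of 0.32. Aars, for alanine, had 205 and 177 CPM in total mRNA and 338 and 387 CPM in ribosome-bound mRNA, and Cars, for cysteine, had 47.0 and 43.6 CPM against 170 and 234 CPM. The lower one was Nars, for asparagine, at 48.3 and 51.9 CPM against 8.999 and 10.4 CPM.

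Secreted proteins of hepatocytes differed among themselves. Of 33 albumin and plasma carrier genes 1 was called higher and 1 lower, with a median log2 ratio of -0.32. Alb, the gene with the highest total mRNA CPM, had 45116 and 52406 CPM in total mRNA and 37511 and 30323 CPM in ribosome-bound mRNA (log2 ratio -0.53, edgeR adjusted p = 0.347), with both ribosome-bound values lower. Afm, a vitamin E carrier related to albumin, had 296 and 265 CPM against 1303 and 1228 CPM, a log2 ratio of 2.17 (edgeR SE 0.168, adjusted p = 0.0342). Ahsg, the inhibitor of mineralisation fetuin-A, went the other way, with 2345 and 3043 CPM against 813 and 902 CPM.

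Apolipoproteins and their assembly genes (19 genes) had a median of 0.02 with 1 call in each direction. Apoe, a ligand of lipoprotein receptors and the gene of the list with the highest total mRNA CPM, had 29228 and 36676 CPM in total mRNA and 16213 and 14855 CPM in ribosome-bound mRNA, a log2 ratio of -1.08 (edgeR adjusted p = 0.0717), with both ribosome-bound values lower. Apob, the long scaffold of very-low-density lipoprotein, had 2578 and 2444 CPM in total mRNA and 3462 and 2683 CPM in ribosome-bound mRNA. Apoa1, of high-density lipoprotein, had 13523 and 11150.2 CPM against 16598 and 11409 CPM, so the groups overlapped. Lcat, the enzyme that esterifies cholesterol on high-density lipoprotein, was called higher at 464 and 421 CPM against 923 and 1130 CPM, and Apof was called lower at 492 and 582 CPM against 207 and 203 CPM.

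Coagulation factors and protease inhibitors (33 genes, median -0.47) had 2 calls in each direction. Mug1, a broad protease inhibitor of mouse plasma, had 1323 and 2077 CPM in total mRNA and 6959 and 11239.8 CPM in ribosome-bound mRNA, a log2 ratio of 2.42. Of 20 complement genes (median 0.05) 0 were called higher and 3 lower, among them C1s1, a protease of the first component, at 921 and 1090 CPM against 408 and 376 CPM.

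The major urinary proteins, pheromone carriers made in large amounts by male liver, had the lowest median of the classes after the ribosomal proteins. Their 15 genes had a median log2 ratio of -1.997, between -3.50 and -0.70, with 4 called lower, and 12 had both ribosome-bound values below both total mRNA values. Mup3 had 4562 and 5099 CPM in total mRNA and 1586 and 1481 CPM in ribosome-bound mRNA (log2 ratio -1.65, edgeR SE 0.185, adjusted p = 0.0342). Mup genes are near-identical copies, so the values of single genes are uncertain, while the summed level of the list, from 25107 and 37322 CPM to 8239 and 9968 CPM, does not depend on how reads were split among its members.

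**Figure D3:**
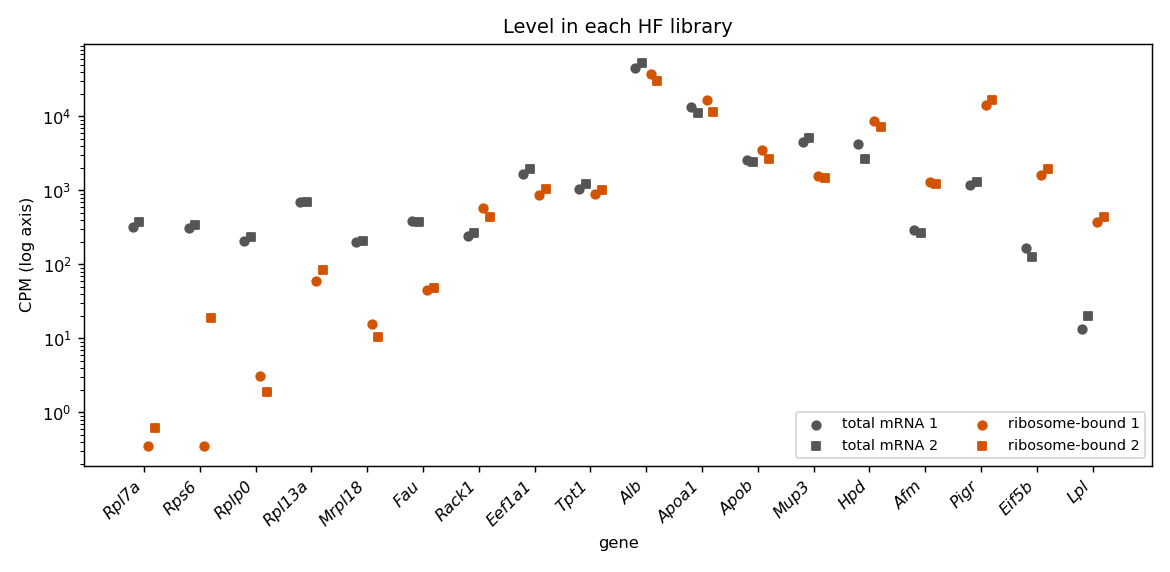
Level in CPM on a log axis of 18 genes in each of the 4 HF libraries, with total mRNA in grey and ribosome-bound mRNA in orange. Among the ribosomal protein genes on the left, Rpl7a, Rps6, Rplp0, Rpl13a, Mrpl18 and Fau lie below their total mRNA values, and Rack1 lies above. The secreted protein genes Alb, Apoa1 and Apob lie nearer to their total mRNA values, and Afm, Pigr, Eif5b and Lpl lie above theirs.

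Among drug-metabolising genes, the cytochrome P450 list had a larger share called lower than the 7659 genes as a whole. Of 29 genes of that list, which includes their reductase, 9 were called lower (31%) and 1 higher (3.45%). Of all 7659 genes 8.33% were called lower and 4.9% higher. The median log2 ratio of the list was -0.57. Cyp2e1, which oxidises ethanol, had 3951 and 4465 CPM in total mRNA and 1741 and 1594 CPM in ribosome-bound mRNA, and Cyp1a2 had 588 and 682 CPM against 78.7 and 170 CPM. Cyp2a22 was the exception, with 106 and 98.4 CPM against 687 and 887 CPM, a log2 ratio of 2.93. The glutathione, glucuronosyl and sulfo transferases (32 genes) had a median of -0.97, with 3 called lower (9.38%) and 1 higher (3.12%). These shares were near those of all 7659 genes. Mgst1, a microsomal glutathione transferase, had 2586 and 2557 CPM against 779 and 429 CPM. Many of these genes belong to clusters of close copies.

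Genes of amino acid metabolism were called in both directions. Of 59 genes of the urea cycle and amino acid breakdown 7 were called higher (11.9%) and 5 lower (8.47%), with a median log2 ratio of -0.32. Over all 7659 genes 4.9% were called higher and 8.33% lower, so the lower share was near that of all genes. Tdo2, which opens the tryptophan ring, had 801 and 488 CPM in total mRNA and 127 and 86.0 CPM in ribosome-bound mRNA, and Oat, ornithine aminotransferase, had 771 and 615 CPM against 189 and 147 CPM. Hpd, of tyrosine breakdown, had 4214 and 2676 CPM against 8729 and 7124 CPM without passing the test (edgeR adjusted p = 0.0910). Of 24 enzymes of betaine, methionine and folate metabolism 1 was called, Aldh1l1, a folate dehydrogenase, at 1022 and 728 CPM against 2176 and 2190 CPM. Bhmt, which uses betaine to remethylate homocysteine, had 3721 and 1569 CPM in total mRNA and 5270 and 1765 CPM in ribosome-bound mRNA, so its libraries differed more within each kind than between kinds.

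Lipid enzymes lay slightly below the middle. Fatty acid oxidation and ketogenesis (31 genes) had a median log2 ratio of -0.61 with 4 called lower and 1 higher. Acadm, the medium-chain dehydrogenase, had 425 and 335 CPM in total mRNA and 64.0 and 112 CPM in ribosome-bound mRNA. Fatty acid and triglyceride synthesis (29 genes) had a median of -0.74 with 3 called lower (10.3%) and 0 higher. Dgat2, which completes triglycerides, was called lower by a small margin at 641 and 628 CPM against 393 and 357 CPM, and Acss2, which makes acetyl-CoA from acetate, had 36.7 and 45.8 CPM in total mRNA and 0 reads in both ribosome-bound libraries, at least 83.7-fold lower. Fasn, fatty acid synthase, had 154 and 219 CPM against 163 and 141 CPM, and Scd1, the stearoyl-CoA desaturase, had 4140 and 1737 CPM against 3135 and 677 CPM, so neither was separated. Cholesterol synthesis (18 genes) had a median of -0.63 with 2 called lower, Srebf2 and Hsd17b7, both at 0 reads in both ribosome-bound libraries.

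Energy metabolism held short mRNAs with ratios near 0. Respiratory complex I (37 genes, median longest transcript 681 bases) had a median log2 ratio of 0.09 with 2 called higher and 1 lower. Ndufs3, a core subunit, had 116 and 119 CPM in total mRNA and 418 and 289 CPM in ribosome-bound mRNA. Complexes III to V (37 genes) had a median of -0.29 with 1 called higher and 5 lower, and here Uqcrq of complex III had 1014 and 987 CPM against 1965 and 1902 CPM while Atp5g1 of the ATP synthase had 195 and 250 CPM against 69.7 and 72.6 CPM. The citric acid cycle (22 genes, median -0.54) had 1 call, Idh3g, higher. Glycolysis and gluconeogenesis (24 genes, median -0.33) had 1 call each way, Aldoa higher and Ldha lower. Pck1, the rate-limiting enzyme of gluconeogenesis, had 6006 and 3837 CPM against 1130 and 485 CPM and missed the threshold (edgeR adjusted p = 0.0536).

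Of 35 proteasome subunits 6 were called higher and 0 lower, and the median log2 ratio was 0.36. Both ribosome-bound values lay above both total mRNA values for 14 of them and below both for 3, beside 23.1% and 39.7% of the 7659 genes. Psmd4, a ubiquitin receptor, had 150 and 136 CPM in total mRNA and 625 and 538 CPM in ribosome-bound mRNA, and Psma4 of the core particle had 112 and 132 CPM against 371 and 452 CPM. Cytosolic chaperones and chaperonins (30 genes) had a median of 0.10 with 2 calls each way: Cct7 of the chaperonin ring was called higher, and Hsp90aa1, the inducible HSP90, was called lower at 202 and 190 CPM against 43.1 and 38.9 CPM. Secretory pathway genes (46 genes, median -0.44) had 6 called lower (13%) and 1 higher (2.17%). Sec62, of the translocation channel, was the higher one at 153 and 123 CPM against 725 and 658 CPM.

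Among classes with nuclear roles, splicing factors and clock genes had medians below that of all genes. Of 49 splicing factors and hnRNPs 10 were called lower and 2 higher, with a median log2 ratio of -0.81. Srrm2, a protein of nuclear speckles, had 340 and 410 CPM in total mRNA and 61.4 and 97.0 CPM in ribosome-bound mRNA, and Hnrnph2 had 33.5 and 28.4 CPM and 0 reads in both ribosome-bound libraries, at least 62.8-fold lower. Clock genes (18 genes, median -0.80) had 1 call each way: Per2, a repressor of the clock, was lower at 437 and 469 CPM against 154 and 102 CPM, and Usp2 was higher. The chromatin and transcription regulators with long transcripts (42 genes, median -0.30) had 4 calls each way (9.52% in each direction). Chd7, a chromatin remodeller, had 88.9 and 68.0 CPM against 490 and 317 CPM, whereas Crebbp, a histone acetyltransferase, had 19.5 and 15.8 CPM and 0 reads in ribosome-bound mRNA.

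Large cytoskeletal, membrane and vesicle proteins (37 genes) had a median log2 ratio of -0.45 with 5 called lower and 2 higher. Lrp1, an endocytic receptor, had 947 and 958 CPM in total mRNA and 435 and 389 CPM in ribosome-bound mRNA. Lyst, a regulator of lysosome size, and Notch2 had 0 reads in both ribosome-bound libraries. Bile acid genes and hepatocyte transporters (36 genes, median -0.27) had 2 called higher, Abcb4 and Nr1h4, and 3 lower. Small stress and iron proteins (39 genes, median -0.49) had 5 called lower (12.8%) and 2 higher (5.13%). Sod2, the mitochondrial superoxide dismutase, had 178 and 179 CPM against 33.7 and 32.2 CPM, while the ferritin subunits Ftl1 and Fth1 had log2 ratios of -0.15 and 0.06.

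mRNAs known for regulatory upstream frames or frameshifts (18 genes) had a median of -0.32 with 2 called higher and 1 lower. Atf4, the stress factor translated through upstream frames, had 176 and 156 CPM in total mRNA and 151 and 139 CPM in ribosome-bound mRNA. Ddit3, its target, had 33.6 and 39.8 CPM against 101 and 144 CPM and was called higher, and Ppp1r15b, a subunit of the phosphatase for initiation factor 2, had 93.3 and 101 CPM against 27.0 and 36.2 CPM and was called lower. Histone genes (10 genes, median -0.38) had 1 call, H3f3a, lower.

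**Figure D4:**
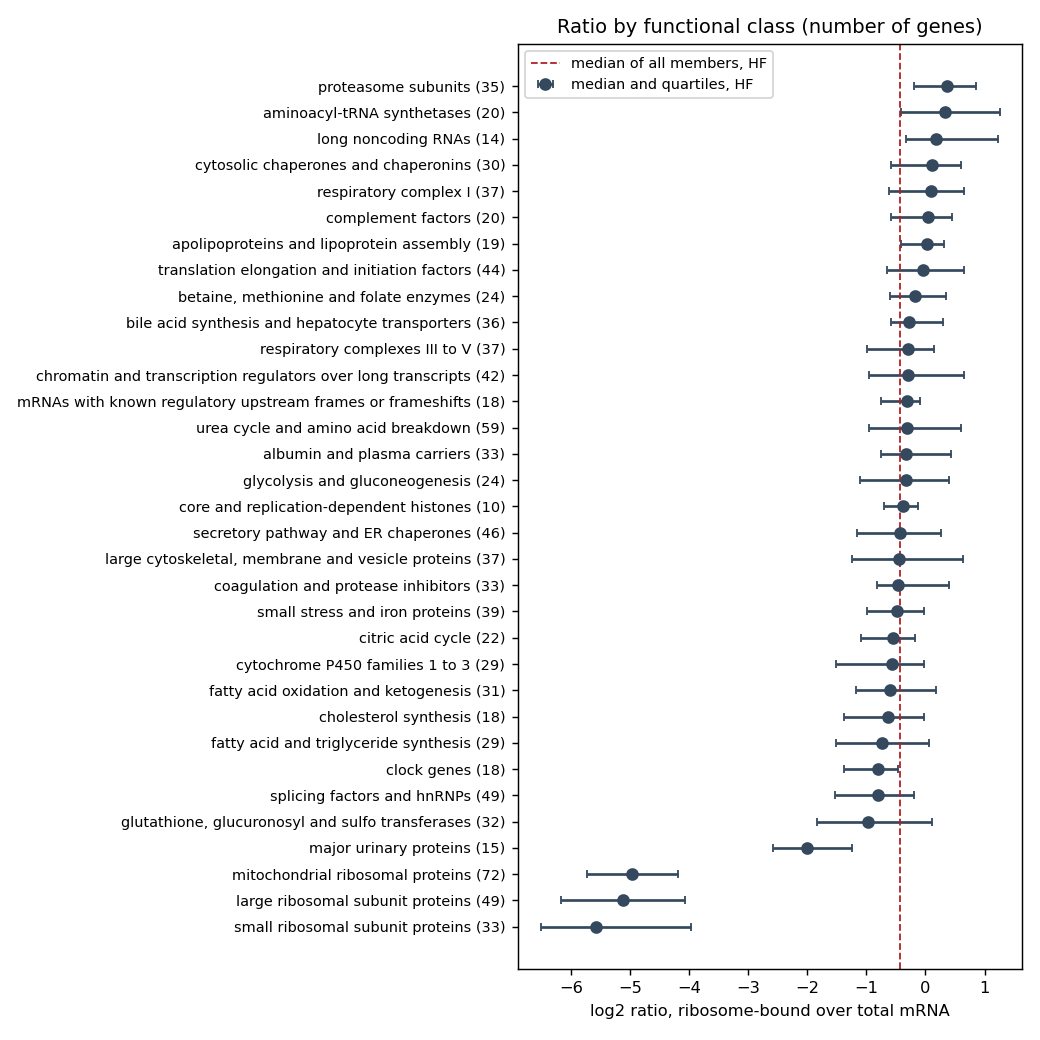
Median log2 ratio of ribosome-bound over total mRNA in HF (horizontal axis) for 33 functional classes, with bars to the quartiles of the genes in a class, the number of genes in brackets and a dashed line at the median of all 7659 genes (-0.43). The 3 ribosomal protein classes lie between -5.58 and -4.97, the major urinary proteins at -1.997 and the other classes between -0.97 and 0.36.

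The highest ratios belonged to genes of no common class. Lpl, lipoprotein lipase, had the highest, with 13.3 and 20.1 CPM in total mRNA and 370 and 437 CPM in ribosome-bound mRNA, a log2 ratio of 4.58 (edgeR SE 0.326, adjusted p = 0.0342). Pigr, the receptor that carries immunoglobulin A into bile, had by far the most reads among the 10 highest genes: 1194 and 1312 CPM in total mRNA and 14206 and 16520 CPM in ribosome-bound mRNA, 12.3-fold higher. Csrnp2 had 15.3 and 17.6 CPM against 305 and 364 CPM, Wdr37 had 22.3 and 21.0 CPM against 377 and 392 CPM, and Foxp2, a transcription factor, had 11.98 and 10.98 CPM against 163 and 210 CPM. Gm17066, a gene with no assigned function in the files, had 60.2 and 51.2 CPM against 1058 and 1238 CPM. In HB the ratio of the 10 highest genes lay between 3.01 and 6.50.

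At the other end, 342 genes had 0 reads in both ribosome-bound libraries. Rxrb, a retinoid X receptor, had the highest total mRNA CPM among those named, with 64.4 and 62.7 CPM, and was at least 129-fold lower. It also had 0 reads in both HB ribosome-bound libraries, at 33.9 and 40.0 CPM in HB total mRNA. Mpeg1, a pore-forming protein of macrophages, had 26.0 and 35.9 CPM in HF total mRNA and 0 reads in ribosome-bound mRNA, but 47.9 and 30.5 CPM in HB total mRNA and 53.0 and 58.2 CPM in HB ribosome-bound mRNA. A count of 0 in these HF libraries was thus matched by 0 in HB for 1 of these 2 genes and not for the other. In ribosome-bound library 1 alone 1027 genes (13.4%) had 0 reads, and in library 2 alone 794 (10.4%).

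Across transcript length the ratio moved little. Spearman's rho of the log2 ratio with the length of the longest transcript, across 7659 genes that are not independent replicates, was -0.064, and with the 3 ribosomal lists left out, a choice made after the data had been seen, it was -0.112. The medians peaked among genes of 1000 to 1500 bases, at -0.21, and reached -0.61 at 4000 to 6000 bases. Genes under 500 bases had a median of -0.63 with 22.4% called lower, but 18 of these 76 genes encode ribosomal proteins and the other 58 had -0.33 with 6.90% called lower. Without the ribosomal lists, genes of 500 to 1000 bases had the highest median, -0.12, and the next bins had -0.15, -0.23, -0.38, -0.52, -0.61 and -0.45 in order of length. In every bin the quartiles lay further apart than the highest and the lowest of these medians.

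**Figure D5:**
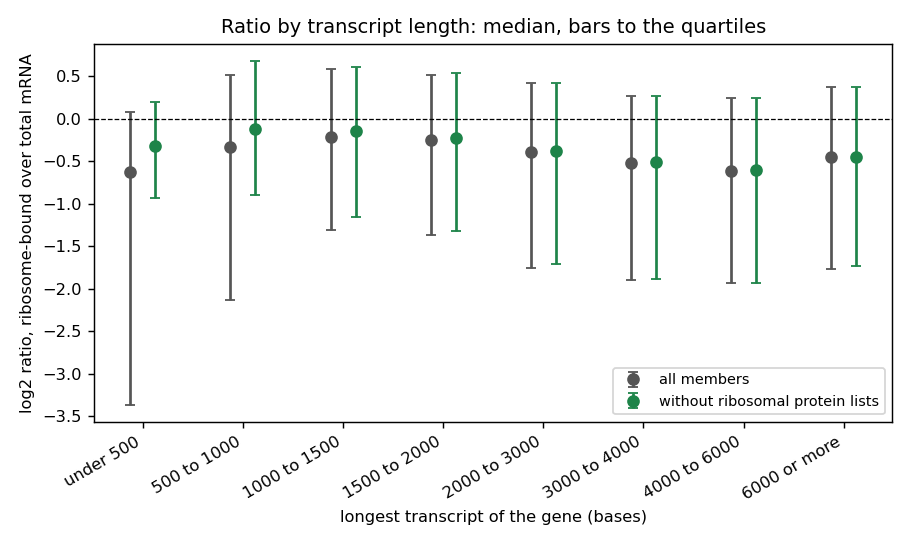
Median log2 ratio of ribosome-bound over total mRNA in HF, with bars to the quartiles, in 8 bins of the gene's longest transcript, for all 7659 genes and for the 7505 outside the ribosomal protein lists. With all genes the median is lowest under 500 bases (-0.63), and without the ribosomal lists it is lowest at 4000 to 6000 bases (-0.61).

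In HB the same 7659 genes gave a rho of 0.066, of the opposite sign. The mean transcript length weighted by reads was 2656.4 and 2591.3 bases in the HF total mRNA libraries and 2776.0 and 2802.5 bases in the HF ribosome-bound libraries. The 2 kinds did not overlap, which in an exact two-sided permutation test of 2 against 2 gives p = 0.333, the smallest this design allows.

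The ratio was also described by abundance in total mRNA. Genes at a mean of 10 to 20 CPM in total mRNA (1801 genes) had a median log2 ratio of -1.02, and 31.6% and 27.1% of them had 0 reads in ribosome-bound libraries 1 and 2. With library 1 alone the median of this bin was -0.55 and with library 2 alone -0.39, both nearer to 0 than the median of the mean ratio. At 20 to 50 CPM the median was -0.42, and from 50 CPM upward it lay between -0.41 and -0.22. Of the 271 genes at 500 CPM or more, 0 had 0 reads in a ribosome-bound library, and 18.5% were called lower and 5.17% higher. Just inside the inclusion rule, 266 genes whose lower total mRNA value was 10 to 11 CPM had a median of -1.86, and just outside it 275 genes at 9 to 10 CPM had -1.73. With ribosome-bound libraries 1 and 2 alone these medians were much closer to 0, at -0.60 and -0.53 inside and -0.56 and -0.64 outside. Outside the rule, 397 genes had at least 10 CPM in both ribosome-bound libraries.

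Noncoding RNAs had a median ratio similar to that of genes with a coding accession. The 107 genes with only noncoding RefSeq accessions had a median log2 ratio of -0.36, beside -0.43 for the genes with a coding accession. Malat1, a nuclear RNA, had 546 and 634 CPM in total mRNA and 380 and 368 CPM in ribosome-bound mRNA, and Neat1, which builds nuclear paraspeckles, had 1085 and 1375 CPM against 669 and 1325 CPM. Of 14 long noncoding RNAs on the list 2 were called higher, Snhg11 and Snhg12, and 0 lower. Snhg12, a host of small nucleolar RNAs, had 15.7 and 14.6 CPM in total mRNA and 64.0 and 65.3 CPM in ribosome-bound mRNA. Both nuclear RNAs were thus present in both ribosome-bound libraries. Whether they were bound by ribosomes or pelleted without them was not tested.

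Methylation of the mRNA at adenosine N6 (m6A) was compared through the authors' deposited peak summits. Of the 7659 genes 7477 were matched to a gene span, 3898 of these held a summit in both HF m6A libraries and 1890 in neither. The median log2 ratio was -0.48 with summits and -0.38 without, and the median longest transcript was 3704.5 bases with and 1812.5 bases without. Within the 8 bins of length, in order of length, the medians with and without summits were -0.05 and -0.75 (8 and 52 genes), -0.70 and -0.28 (99 and 298 genes), -0.12 and -0.26, -0.28 and -0.19, -0.40 and -0.46, -0.52 and -0.56, -0.65 and -0.61, and -0.46 and -0.23 (736 and 26 genes). The median was thus higher with summits in 4 bins and lower in 4, and every difference was smaller than the distance between the quartiles of either group.

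Markers of hepatocytes, the parenchymal cells of the liver, were abundant in all 4 libraries: the 10 genes summed to 84951 and 89359.6 CPM in total mRNA and 71971 and 54957 CPM in ribosome-bound mRNA. The 14 Kupffer cell and macrophage markers summed to 379 and 454 CPM against 443 and 338 CPM, and the 12 endothelial markers to 686 and 622 CPM against 562 and 598 CPM. Neutrophil markers summed to 5.25 and 30.9 CPM in total mRNA and to 0 and 38.7 CPM in ribosome-bound mRNA, and T, B and NK cell markers to 6.91 and 10.1 CPM and to 0 and 12.4 CPM, so both lists were higher in the second library of each kind. In these tissue libraries fewer cells of a type and less RNA per cell cannot be told apart. Stellate cell markers summed to 444 and 366 CPM against 271 and 411 CPM, cholangiocyte markers to 54.7 and 64.9 CPM against 27.5 and 54.1 CPM, and red blood cell transcripts to 431 and 361 CPM against 437 and 342 CPM. Their part in the ratios was not tested.

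The HB libraries gave similarly low ratios for ribosomal proteins. The HB ribosome-bound pair differed by little more than sampling noise (chi-square per degree of freedom 1.40 over 9160 genes, against 99.1 for the HF pair) and was counted as 1 sample. The HB median was -4.91 for large-subunit, -5.30 for small-subunit and -5.56 for mitochondrial ribosomal proteins. The difference of the ratio between diets was tested with edgeR on 7 libraries, and 1289 of 13454 genes passed (9.58%), of which 530 belong to the 7659 (6.92%). For splicing factors the class median was 0.31 in HB beside -0.81 in HF, and for long noncoding RNAs 1.92 beside 0.18. The difference between diets was not tested for these classes as such.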

How the data were processed

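Per the labels' protocols, libraries were made from polyadenylated RNA and reads were mapped to RefSeq RNA. The deposited read count is the authors' count of reads per gene with splice variants merged and no normalization, and the deposited RPKM scales it per kilobase of the longest transcript. Aligner settings for these tables are not given in the sources used here. The submitters' processing notes list HISAT2 2.0.4, HTSeq 0.6.0 and MACS2 2.1.0.20151222 with the mm10 build, without roles. The authors' m6A peak lists hold a fold enrichment (ratio) per peak, used only to locate summits.

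CPM was computed from library totals with a pseudocount of 0.5. edgeR 4.0.16 (filterByExpr, quasi-likelihood F test, 2 residual degrees of freedom) was run in R 4.3.3, with DESeq2 1.42.0 and limma 3.58.1 as alternatives. On simulated data this test recovered changes when both kinds of library had the same spread. It made no calls when the simulated ribosome-bound libraries had a much larger spread than the total mRNA libraries. The spread is larger here too. The fitted spread (edgeR's common dispersion) was 0.0456 where the total mRNA pair alone gave it and 1.71 where the ribosome-bound pair alone did. The same test nevertheless made calls here. The simulation does not tell why, so how well the calls hold under such unequal spread is not known. Ribosome-bound libraries have about 1 read per 0.173 and 0.1555 CPM, which sets the precision of low values. Intervals and floors (3 reads) cover counting error only. Same-numbered total and ribosome-bound libraries share a replicate number in their labels, and a common source is not stated. Their deviations correlated at 0.118 over the 7659 genes. With the wide spread of the ribosome-bound pair (SD 2.20), that value cannot tell whether the libraries are paired.

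The inclusion rule, the gene lists and the tests were chosen with earlier results of these data known. The genes named were the 10 highest and 10 lowest called ratios with groups that do not overlap, up to 3 called members of each list and its most abundant gene (up to 2 of smallest p where none was called), the 10 most abundant genes and a fixed set of textbook genes. Genes grouped by symbol were chosen after their values were seen.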

Additional observations from a re-analysis of the deposited data

Results flagged for a closer look

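For 22 named genes the ratio in HF differed from that in HB by the test of the difference itself (edgeR interaction, adjusted p under 0.05, 7 libraries with the HB ribosome-bound pair summed). The change is the HB minus the HF log2 ratio as fitted. It was positive for Actb (1.71), Atf4 (1.68), Gas5 (1.92), Gm17066 (2.18), Luc7l2 (2.07), Snhg11 (2.07), Rps7 (3.72), Olfr856-ps1 (4.80) and Rps26 (5.35). Rps26 had 0 and 1 read in HF ribosome-bound mRNA, so its fitted change also depends on the small count the fit adds, and its log2 ratios were -7.96 in HF and -5.11 in HB. It was negative for Eef2 (-2.06), Ldha (-2.19) and Rplp0 (-2.64). For another 10 genes HF had 0 reads in both ribosome-bound libraries, and the fitted change then depends on the small count the fit adds: Eif2s1 (9.10), Gspt1 (11.29), Gstm7 (7.20), Lyst (9.71), Mpeg1 (12.16), Mrpl10 (8.65), Mrpl54 (7.99), Notch2 (9.80), Slc16a1 (8.32) and Srebf2 (8.79). Actin (Actb) had 803 and 813 CPM in HF total mRNA and 520 and 587 CPM in HF ribosome-bound mRNA, with an HB log2 ratio of 1.16. Rps7 and Rps26, although less low in HB, still had HB log2 ratios of -4.91 and -5.11. The HB ribosome-bound libraries add 1 sample to this test, so it has no spread of its own in that group. Many of the named genes were chosen for an extreme or called HF ratio, and the same HF values enter this test. That choice favours a change back toward the middle, above all for genes with 0 HF reads. The list is therefore a description and no support for an effect of diet. The share of all genes that passed is given above with the HB libraries.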

How the results depend on the processing

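The 638 lower and 375 higher calls became 703 and 308 with TMM scaling and 1018 and 598 with DESeq2. They became 494 and 218 with limma voom and quality weights, and 863 and 523 with both diets in 1 fit. Removing the length trend, its fitted level included, moves the median ratio of the 7659 genes from -0.425 to 0.424, a shift in every bin of length. With it removed, the calls were 479 and 1273. They were 0 and 0 with no filter on low counts (1911 of the 7659 genes at an unadjusted edgeR p under 0.05) and 0 and 0 at a mean of 5 CPM (1962 unadjusted). Leaving out 1 library gave from 0 to 3083 lower and from 0 to 1747 higher: 0 and 0 without either total mRNA library (672 and 601 unadjusted), 2961 and 1747 without ribosome-bound library 1 and 3083 and 1644 without library 2, where the spread comes from the total mRNA pair alone and the lone library is assumed to vary like it. With a replicate block the calls were 47 lower and 34 higher. Whether same-numbered libraries share material is not stated, so whether the block is due cannot be told. Of 115 named genes that were called, 111 kept the call with TMM, 115 with DESeq2, 68 with voom and 31 with the block. With the length trend and its level removed 84 kept it, and Cox6b1 (0.093) and Luc7l2 (0.137) reversed under that shift. The median of all genes was -0.57 at 5 CPM, -0.34 at 20 CPM and -0.26 at a mean of 10 CPM over the 4 libraries. The rank correlation (Spearman) with length ranged from -0.070 to -0.036 when 1 library was left out and was -0.112 without the ribosomal lists. The ribosomal lists' median minus that of all genes was -4.67, and -5.73 and -4.24 with pseudocounts of 0.1 and 1 CPM, -5.13 at a mean of 10 CPM, and -5.06 to -4.58 without 1 library. Of 33 class medians 33 kept their sign with TMM, 26 without ribosome-bound library 1 and 28 without library 2. With the HB ribosome-bound pair as 2 libraries 2136 genes differed between diets, beside 1289. Protein length in place of transcript length was not run.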
